A study of Homo sapiens with 6 samples.

Results

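The genes described here encode sensors of DNA and related nucleic acids, the adaptor STING and the HIN-200 family. They are MB21D1 (also CGAS), TMEM173 (also STING1), IFI16, AIM2, MNDA, PYHIN1, ZBP1, TREX1 and TLR9. These 9 genes were found by symbol among the 19899 genes of the deposited table. RNA-seq was performed on COV434, an ovarian line that the study treats as a model of SCCOHT, the hypercalcemic small cell carcinoma of the ovary, which lacks BRG1. SMARCA4 encodes BRG1, the ATPase that drives chromatin remodeling by SWI/SNF complexes. The parental cells were co-transfected with FuGENE 6 in 3 Control and 3 BRG1 biological replicates. Control cells received pCDNA3-neo and BRG1 cells received PBJ5-BRG1, and both groups also received pBABE-puro, at a plasmid ratio of 10 to 6.25 over 1. Selection with 2 to 3 µg/ml puromycin began 24 hours later and lasted 3 days in both groups. Plasmid DNA was therefore given to every sample, and the labels hold no sample without plasmid. The backbones of the plasmids also differ between the groups, so that BRG1 and its backbone cannot be told apart.

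Cytosolic double-stranded DNA is bound by cGAS, the product of MB21D1, which makes the second messenger cGAMP. cGAMP activates STING on the endoplasmic reticulum, and STING recruits the kinase TBK1 and the transcription factor IRF3 to induce type I interferon. HIN-200 proteins bind DNA through a HIN domain, and AIM2 among them assembles an inflammasome with the adaptor ASC and caspase-1. ZBP1 binds Z-form nucleic acids, TREX1 is an exonuclease that degrades cytosolic DNA, and TLR9 senses unmethylated CpG DNA in endosomes.

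IFI16, TMEM173, ZBP1, MNDA and TREX1 were higher in BRG1 than in Control cells, while MB21D1 and AIM2 stayed at a few counts in both groups and PYHIN1 had none. Of the 9 genes, 8 had a count in any sample, and 7 passed the filter of DESeq2 on low counts. DESeq2 called 5 of the 9 higher at an adjusted p under 0.05, and in all tested genes 11.0% were called higher. DESeq2, edgeR and limma-voom each called 0 of the 9 lower, and 0 were lower at an unadjusted DESeq2 p under 0.05, beside 1.84% of all tested genes called lower by DESeq2. edgeR tested those 5 genes alone of the 9 and called each of them higher (in all genes 9.57% were called higher and 1.02% lower). Of the 5, IFI16 reached edgeR's count filter in both groups, and the other 4 passed it through the BRG1 samples alone, so that their count of calls is partly set by the filter. When the replicate number was added as a block, 3 of the 9 were called higher by DESeq2 (13.4% of all genes) and 5 by edgeR (13.7%), and 0 were called lower by either (6.62% and 5.68% of all genes). In 5 of the 9 genes every BRG1 sample lay above every Control sample, as it did in 15.4% of all genes with a count. The median log2 fold change of the 8 genes with a count was 3.86, or 2.79 with ZBP1 and TLR9 at the lower bound that their Control counts of 0 allow, beside a median of -0.0010 over all genes.

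**Figure D1:**
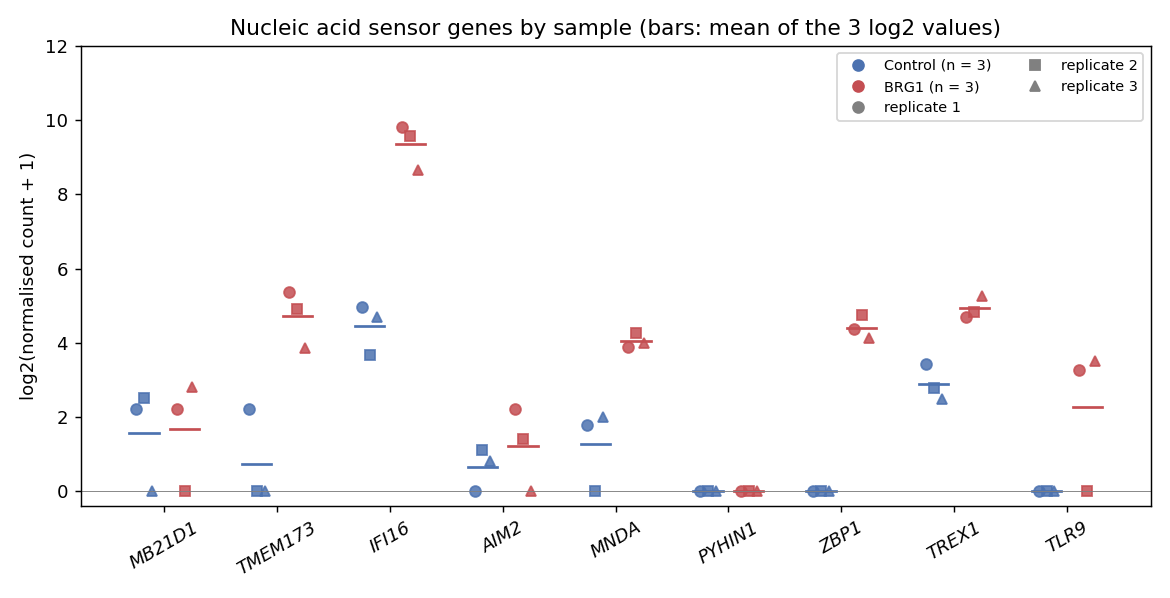
Each point is the log2 of the normalised count plus 1 of a sensor gene (horizontal axis) in a sample, with Control in blue, BRG1 in red, replicate numbers as symbols and a bar at the mean of the 3 log2 values. IFI16, TMEM173, ZBP1, MNDA and TREX1 have every BRG1 point above every Control point, and PYHIN1 lies at 0 in all 6 samples.

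Libraries held 29699741 (BRG1 replicate 3) to 63613710 (BRG1 replicate 1) estimated counts, so that 3 counts correspond to between 0.0472 and 0.101 CPM. SMARCA4, the transfected gene, had normalised counts of 1439, 1676 and 1538 in Control replicates 1 to 3 and of 108655, 79075 and 78589 in BRG1 replicates 1 to 3, a log2 fold change of 5.84 ± 0.18 (SE). Of 10 granulosa cell markers, 6 were tested. DESeq2 called CYP19A1 and INHBA higher and 0 lower, beside 11.0% higher and 1.84% lower in all genes. The median log2 fold change of these markers was 0.29, and 3 of them were below 0. FOXL2 did not exceed 1.22 normalised counts in any sample and AMHR2 had no count. Of 16 leukocyte markers, 10 stayed at or under 10 normalised counts in every sample and none was without a count. DESeq2 tested 8 of the 16 and called 1 higher and 0 lower, beside 11.0% and 1.84% of all genes. That marker was LYZ, a lysozyme of myeloid cells (1.06 ± 1.25 in Control against 19.0 ± 4.57 in BRG1 cells, SD, n = 3). Its DESeq2 adjusted p was 0.0614 without BRG1 replicate 2. The LYZ value is also uncertain because 34.7% of its exon bases lie under exons of another gene. PTPRC, the leukocyte antigen CD45, had a normalised count of 505 ± 167 in Control and 519.7 ± 185 in BRG1 cells (SD, n = 3). CD68, a lysosomal macrophage marker, had 1736 ± 699.6 and 2757 ± 812 (DESeq2 adjusted p of 0.217, and 0.00132 with the replicate block), values that are uncertain because 85.6% of its exon bases lie under exons of other genes. The 16 markers summed to between 1872 and 2888 normalised counts in Control and between 2461 and 3968 in BRG1 samples. Most of these sums came from CD68, whose values are uncertain, and PTPRC. Of the 16, 11 had a log2 fold change above 0 and 5 below 0. The part of leukocyte transcripts in the results below was not tested.

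MB21D1, the cytosolic DNA sensor cGAS, was close to absent in both groups. MB21D1 lies on chromosome 6 from 73413515 to 73452297 (minus strand of GRCh38, GENCODE release 44). Its estimated counts were 3.06, 4.18 and 0 in Control replicates 1 to 3 and 4.80, 0 and 3.60 in BRG1 replicates 1 to 3. Each group thus held a sample with no count, and the groups overlapped. Summed over replicates, 7 counts in Control and 9 in BRG1 cells gave a ratio of 1.18 after scaling to library size, with an exact 95% interval from 0.392 to 3.74 that covers counting error only. The log2 fold change was 0.20 with a 95% interval from -3.56 to 3.96 (DESeq2 adjusted p of 0.977), and edgeR's filter left the gene out. A difference in MB21D1 was not detectable at this depth.

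TMEM173, the adaptor STING, was higher in BRG1 cells from a Control level near 0. TMEM173 lies on chromosome 5 from 139475533 to 139482935 (minus strand). Its normalised counts were 3.65, 0 and 0 in Control and 40.6, 29.1 and 13.4 in BRG1 replicates 1 to 3. All BRG1 samples lay above all Control samples, and the spread among BRG1 replicates was wide, with replicate 3 lowest. Summed estimated counts were 3 in Control and 100 in BRG1 cells, a ratio of 30.7 with an exact 95% counting interval from 10.2 to 151. The log2 fold change was 4.68 ± 1.21 (SE), with an adjusted p of 0.00142 by DESeq2 and 0.0198 by edgeR. The DESeq2 adjusted p was 0.0954 without BRG1 replicate 1 and 0.0618 without BRG1 replicate 2. All Control counts came from replicate 1, and leaving out single samples gave log2 fold changes from 3.95 (without Control replicate 3) to 7.33 (without Control replicate 1). In these bulk samples, a change in the number of cells that express a gene and a change in its RNA per cell cannot be told apart.

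**Figure D2:**
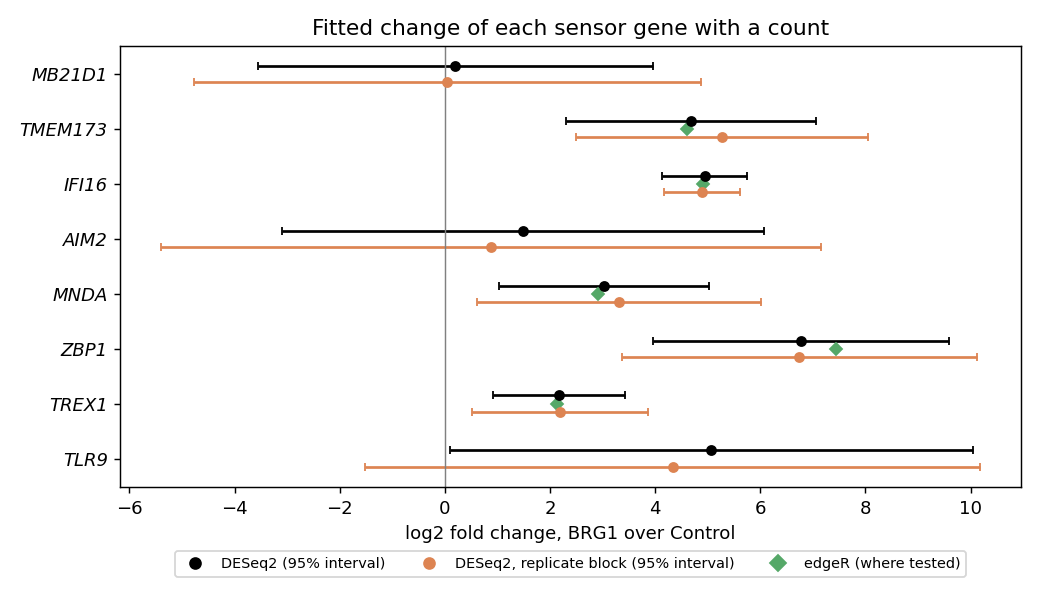
Points are fitted log2 fold changes of BRG1 over Control (horizontal axis) for the 8 sensor genes with a count, by DESeq2 (black) and by DESeq2 with the replicate block (orange), each with its 95% interval, and by edgeR (green) where its filter kept the gene. Without the block, the DESeq2 intervals of MB21D1 and AIM2 span 0, while that of IFI16 runs from 4.14 to 5.75.

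DESeq2 tested all 21 STING signalling genes and called 2 higher and 1 lower, beside 11.0% higher and 1.84% lower in all genes. Their median log2 fold change was -0.02. edgeR tested 19 and called 1 higher and 1 lower (9.57% and 1.02% in all genes). With the replicate block, DESeq2 called 3 higher and 2 lower (13.4% and 6.62% in all genes). TBK1, the kinase that STING recruits, averaged 1586 ± 196 normalised counts in Control cells and 1649 ± 206 with BRG1 (SD, n = 3), with a DESeq2 adjusted p of 0.931. IRF3, the transcription factor it phosphorylates, had 3283 ± 543 and 3159 ± 321 (DESeq2 adjusted p of 0.935). Transcripts of both were thus well covered in all 6 samples. TRIM56, a ubiquitin ligase reported to act on STING, rose from 486 ± 94.1 to 1847 ± 262 normalised counts (DESeq2 adjusted p of 4.1e-18). IKBKE, the kinase IKK-epsilon, had 0, 0 and 1.51 normalised counts in Control and 18.9, 7.48 and 22.4 in BRG1 replicates 1 to 3. Its DESeq2 adjusted p was 0.0108, or 0.109 without BRG1 replicate 1 and 0.0698 without BRG1 replicate 3, and edgeR's filter left it out. INSIG1, a sterol regulator that also takes part in STING ubiquitination, fell from 1557 ± 102 to 905 ± 19.0 (DESeq2 adjusted p of 6.1e-08).

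Of 14 genes for cGAS cofactors and the handling of cGAMP, 2 were called higher and 0 lower by both DESeq2 and edgeR (11.0% and 9.57% higher in all genes), with a median log2 fold change of -0.12 and 1 gene lower at an unadjusted DESeq2 p under 0.05. With the replicate block each tool called 3 higher and 1 lower, of 13 tested by DESeq2 and 12 by edgeR. Beside these, 13.4% of all genes were higher and 6.62% lower in DESeq2, and 13.7% and 5.68% in edgeR. TRIM14, which stabilises cGAS, rose from 2758 ± 216 to 10430.5 ± 1009.7 normalised counts (SD, n = 3, DESeq2 adjusted p of 5.7e-38). LRRC8D, a subunit of volume-regulated anion channels, rose from 890.4 ± 42.6 to 1882 ± 553 (DESeq2 adjusted p of 6.9e-05). The subunits LRRC8A, LRRC8B, LRRC8C and LRRC8E were not called (DESeq2 adjusted p of 0.618, 0.706, 0.968 and 0.837). ENPP1, the extracellular hydrolase of cGAMP, had 258, 315 and 398 normalised counts in Control and 152, 206 and 246 in BRG1 replicates 1 to 3. The groups did not overlap, and within each replicate number BRG1 was the lower sample. The DESeq2 adjusted p of ENPP1 was 0.0892 without the block and 0.0143 with it, and that of edgeR was 0.192 and 0.0249. Without BRG1 replicate 3 the unblocked DESeq2 value was 0.0271.

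The 4 HIN-200 genes lie in a cluster on chromosome 1 within 356.5 kb of GRCh38, between 158831351 and 159187843. They did not move alike. IFI16 had the highest level per kb of exon, MNDA was low, AIM2 had single counts and PYHIN1 had none. IFI16, a nuclear and cytosolic DNA sensor that can act upstream of STING, lies from 158999968 to 159055155 on the plus strand. Its normalised counts were 30.5, 11.7 and 25.0 in Control and 905, 758 and 406 in BRG1 replicates 1 to 3. The groups did not overlap, and BRG1 replicate 3 was the lowest of its group. The means were 22.4 ± 9.63 and 689.6 ± 256 (SD, n = 3), a ratio of 30.8, and within replicate numbers 1 to 3 the folds were 29.7, 64.7 and 16.2. The log2 fold change was 4.94 ± 0.41 (SE), with an adjusted p of 3.0e-31 by DESeq2 and 0.000398 by edgeR. Exons of PYDC5 cover 8.03% of the exon bases of IFI16.

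MNDA, the myeloid cell nuclear differentiation antigen, lies from 158831351 to 158849506 on the plus strand. Its normalised counts were 2.44, 0 and 3.03 in Control and 13.8, 18.3 and 14.9 in BRG1 replicates 1 to 3. The groups did not overlap, with means of 1.82 ± 1.61 and 15.7 ± 2.33 (SD, n = 3). Summed estimated counts of 6 and 51 gave a ratio of 7.83 with an exact 95% counting interval from 3.36 to 22.3. The log2 fold change was 3.03 ± 1.02 (SE), with an adjusted p of 0.0256 by DESeq2 and 0.0307 by edgeR. With the replicate block these were 0.0724 and 0.0323. The call by DESeq2 was lost without any one of the 6 samples, with adjusted p between 0.0684 (Control replicate 3 left out) and 0.275 (BRG1 replicate 2 left out). Without Control replicate 3 the log2 fold change was 3.70.

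AIM2, the DNA sensor of the AIM2 inflammasome, lies from 159061599 to 159187843 on the minus strand. Its estimated counts were 0, 0.718 and 1.43 in Control and 4.51, 2.25 and 0 in BRG1 replicates 1 to 3. The groups overlapped, and the highest of the samples was BRG1 replicate 1. The sums of 2 and 7 counts gave a ratio of 3.22, and the exact 95% counting interval from 0.613 to 31.8 holds both a fall and a large rise. DESeq2 gave AIM2 no adjusted p because of its low mean. PYHIN1, which encodes IFIX, a nuclear DNA-binding HIN-200 protein, lies from 158930796 to 158977059 on the plus strand between MNDA and IFI16 and had no count in any of the 6 samples.

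Genes in and around this cluster were listed by position, and 18 neighbours are described. Of these, 6 had a count, 4 were tested, and DESeq2 and edgeR each called 4 higher and 0 lower, with 0 lower at an unadjusted DESeq2 p under 0.05, beside 11.0% and 9.57% higher in all genes. None of the 4 reached edgeR's count filter in a Control sample, so that they were tested because of their BRG1 counts. The 4 were CADM3, ACKR1, APCS and CRP, all on the side of IFI16 away from MNDA. CADM3, a cell adhesion molecule whose start lies 171.6 kb beyond that of IFI16, rose from 6.14 ± 0.87 to 1917 ± 308 normalised counts (SD, n = 3, DESeq2 adjusted p of 1.1e-93), and 36.6% of its exon bases lie under those of an antisense gene. The start of CADM3, at 159171609 on the plus strand, lies inside the span of AIM2 (159061599 to 159187843, minus strand). ACKR1, an atypical chemokine receptor 204.9 kb from the start of IFI16, had 0, 1.17 and 0.757 in Control and 134, 115 and 140.3 in BRG1 replicates 1 to 3. APCS and CRP, which encode pentraxins, lie at 587.9 and 714.6 kb and reached 291 ± 145 and 45.7 ± 30.8 in BRG1 cells (SD, n = 3). These distances use the outermost 5′ end of each gene in GENCODE 44, which for AIM2 is 187.9 kb, while the RefSeq start of AIM2 used for the motifs lies further inside the gene, next to position 159076767. The RefSeq starts of IFI16 used below likewise lie inside the gene, next to positions 159008990 and 159009906, while the distances run from 158999968.

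**Figure D3:**
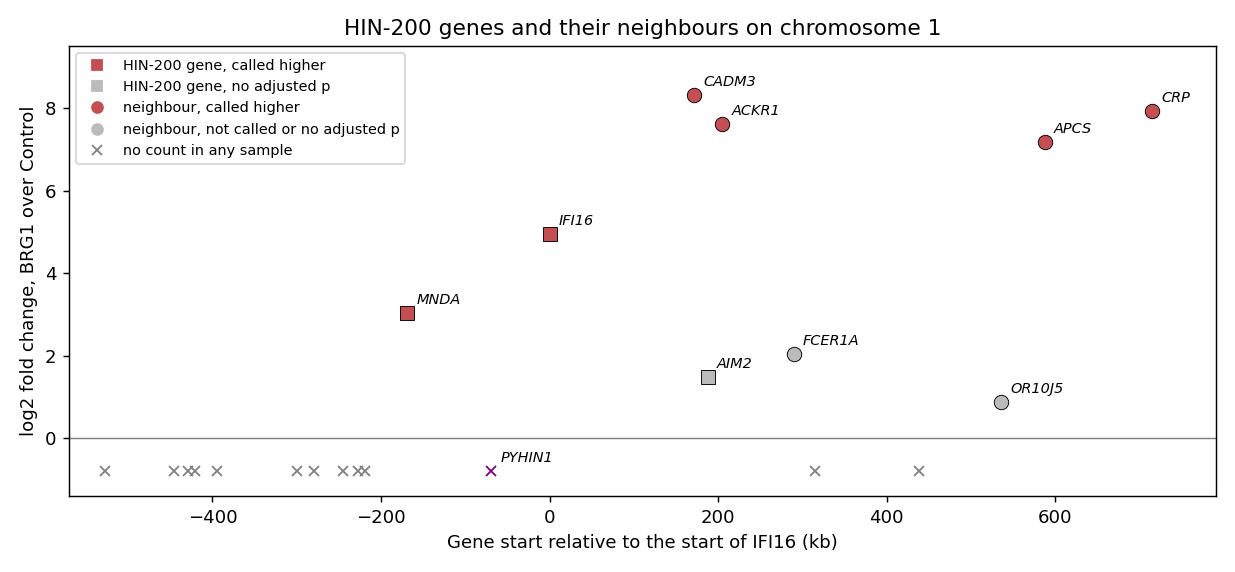
Points show the fitted DESeq2 log2 fold change of BRG1 over Control (vertical axis) against the distance of each gene's outermost 5′ end in GENCODE 44 from that of IFI16 (horizontal axis, kb), with HIN-200 genes as squares, neighbours as circles, genes called higher in red, and genes with no count as crosses set below 0 for display. MNDA and IFI16 are called higher, PYHIN1 between them has no count, and the 4 neighbours called higher lie from 171.6 to 714.6 kb beyond IFI16.

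RefSeq promoter windows, 250 bases before to 50 after a transcription start on GRCh38.p14, were at hand for 6 of the 9 genes, with 2 starts for IFI16. The 250 bases before the start are shown for MNDA (chr1:158831101-158831350), PYHIN1 (chr1:158931302-158931551) and the second start of IFI16 (chr1:159009657-159009906), all on the plus strand and read 5′ to 3′, because these adjacent family genes share runs of letters, while of the 3 only MNDA and IFI16 had counts. Capitals mark exact runs of at least 12 bases that a pair of the 3 windows shares.
MNDA: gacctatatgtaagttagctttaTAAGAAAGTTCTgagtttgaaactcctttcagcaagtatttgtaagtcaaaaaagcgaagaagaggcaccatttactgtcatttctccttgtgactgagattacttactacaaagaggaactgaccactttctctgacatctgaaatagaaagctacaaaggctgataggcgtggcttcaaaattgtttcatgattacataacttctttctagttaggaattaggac
PYHIN1: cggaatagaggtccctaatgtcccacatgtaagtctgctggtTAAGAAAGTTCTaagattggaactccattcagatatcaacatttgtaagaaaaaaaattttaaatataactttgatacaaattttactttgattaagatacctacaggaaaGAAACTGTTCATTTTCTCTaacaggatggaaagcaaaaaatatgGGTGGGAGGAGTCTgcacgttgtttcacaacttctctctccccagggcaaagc
IFI16: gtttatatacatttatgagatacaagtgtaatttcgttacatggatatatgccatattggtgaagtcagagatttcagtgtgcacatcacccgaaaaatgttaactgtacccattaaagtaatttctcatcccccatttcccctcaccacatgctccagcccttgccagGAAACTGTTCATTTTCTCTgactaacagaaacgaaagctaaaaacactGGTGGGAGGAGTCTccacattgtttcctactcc
MNDA and PYHIN1 share the 12 bases TAAGAAAGTTCT, and PYHIN1 and IFI16 share the 19 bases GAAACTGTTCATTTTCTCT and the 14 bases GGTGGGAGGAGTCT. Aligned over their length, these upstream windows were 58.7% identical between MNDA and PYHIN1, 53.6% between PYHIN1 and IFI16 and 48.6% between MNDA and IFI16. Windows paired with TREX1 or TLR9, which are not HIN-200 genes, were 40.2% to 48.2% identical, and the first start of IFI16 was 45.8% identical to MNDA and 47.2% to PYHIN1. Identity between MNDA and IFI16 was thus close to that of the windows paired outside the family.

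3 motifs were searched on both strands of the 300-base windows. The interferon-stimulated response element (TTTC, 2 free bases, TTTC) was in 3.57% of the 35116 windows of the table, and the sensor genes with it were AIM2 (TTTCTGTTTC, 190 bases before the start) and MNDA (GAAATAGAAA, 85 bases before the start, the same motif on the other strand). The AP-1 site TGANTCA was in 7.71% of all windows and in those of AIM2 (TGACTCA, 155 bases before the start), TREX1 (TGAGTCA, 3 bases before the start) and TLR9 (TGACTCA, 87 bases before the start). The GAS element TTCNNNGAA, a STAT site found in 7.66% of all windows, was in none of the windows of these genes. Neither window of IFI16 held any of the 3 motifs, and AIM2, whose window held 2 of them, was at single counts.

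The genes listed as partners of the AIM2 inflammasome, which include NLRP3, NLRC4 and caspases of other inflammasomes, were unevenly present. Of 13 genes, DESeq2 tested 9 and called 4 higher and 0 lower, with a median log2 fold change of 0.67. At an unadjusted DESeq2 p under 0.05, 0 were lower. edgeR tested 6 and called 3 higher and 0 lower. IL1B, low in Control, passed edgeR's filter through its BRG1 samples, so that this count of calls is partly set by the filter. In all genes, DESeq2 called 11.0% higher and edgeR 9.57%. IL1B, which encodes the cytokine that caspase-1 cleaves, had 9.75, 4.69 and 1.51 normalised counts in Control and 1288, 583 and 476 in BRG1 replicates 1 to 3 (DESeq2 adjusted p of 8.1e-33). IL18, the other classical substrate, rose from 7.90 ± 3.22 to 786 ± 621 (SD, n = 3, DESeq2 adjusted p of 6.3e-25). CASP4, the inflammatory caspase that senses lipopolysaccharide, rose from 82.8 ± 18.0 to 329.7 ± 138 (DESeq2 adjusted p of 2.2e-06). CASP1 had 142 ± 12.7 and 261 ± 71.0, with a DESeq2 adjusted p of 0.0151 that was 0.0961 by edgeR and above the threshold without any one sample but BRG1 replicate 3 (up to 0.219 without BRG1 replicate 2). PYCARD, which encodes the adaptor ASC, had 1.22, 0 and 2.27 normalised counts in Control and 0 in all BRG1 samples. Its value is uncertain because 59.7% of its exon bases lie under exons of an antisense gene. GSDMD, which encodes the pore protein of pyroptosis, stayed at or under 1.45 in every sample. Transcripts of both cytokines were thus higher in BRG1 cells while those of AIM2, PYCARD and GSDMD were at single counts or 0 in every sample.

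ZBP1 was called higher from a Control group with no count. ZBP1 lies on chromosome 20 from 57603846 to 57620576 (minus strand). Its normalised counts were 0 in all Control samples and 19.6, 25.8 and 16.4 in BRG1 replicates 1 to 3. The BRG1 samples lay close together, with a mean of 20.6 ± 4.75 (SD, n = 3). From 69 summed counts in BRG1 cells, ZBP1 was at least 21.2-fold higher, computed against 3 counts over the Control group. The fitted log2 fold change of 6.77 ± 1.44 (SE) is no bound, since Control had no count. The adjusted p was 3.9e-05 by DESeq2 and 0.00458 by edgeR, and 0.000855 and 0.00869 with the replicate block.

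Of 6 partners of ZBP1 in cell death, 5 were tested and both tools called 1 higher and 0 lower, with a median log2 fold change of 0.33, and with the replicate block each called 2 higher (0 were lower at an unadjusted DESeq2 p under 0.05). Beside these counts, DESeq2 called 11.0% of all genes higher and edgeR 9.57%, or 13.4% and 13.7% with the block. MLKL, the effector of necroptosis, had 29.2, 10.6 and 20.4 normalised counts in Control and 55.1, 68.1 and 64.2 in BRG1 replicates 1 to 3. Its adjusted p was 0.00585 by DESeq2 and 0.0492 by edgeR, and 0.133 by DESeq2 without BRG1 replicate 2. RIPK3, the kinase that links ZBP1 to MLKL, had counts in only 1 sample of each group, with normalised counts of 1.17 in Control replicate 2 and 4.48 in BRG1 replicate 3. ZBP1 and MLKL were thus higher in BRG1 cells while RIPK3 was near 0 in both groups.

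TREX1 was called higher, with a value that is uncertain. TREX1 lies on chromosome 3 from 48465811 to 48467645 (plus strand), and 100% of its exon bases in GENCODE 44 lie under exons of ATRIP, a gene of the DNA damage checkpoint. Its normalised counts were 9.75, 5.86 and 4.54 in Control and 24.7, 27.4 and 37.3 in BRG1 replicates 1 to 3. The groups did not overlap, with means of 6.72 ± 2.70 and 29.8 ± 6.65 (SD, n = 3). BRG1 replicate 3, the lowest of its group for IFI16, TMEM173 and ZBP1, was the highest for TREX1. The summed counts of 19 and 92 gave a ratio of 4.46 with an exact 95% counting interval from 2.70 to 7.74. The log2 fold change was 2.17 ± 0.64 (SE), with an adjusted p of 0.00756 by DESeq2 and 0.0206 by edgeR, or 0.0511 and 0.0245 with the replicate block. The DESeq2 value was 0.0833 without Control replicate 3, and 0.0513, 0.0900 and 0.0702 without BRG1 replicates 1, 2 and 3. ATRIP itself had 801 ± 101 and 799 ± 62.2 normalised counts (SD, n = 3, DESeq2 adjusted p of 0.991), and how reads were shared between ATRIP and TREX1 was not tested.

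Of 17 other genes for nucleases and the removal of nucleic acids, DESeq2 tested 15 and edgeR 14. Both tools called SAMHD1 and ADAR higher and 0 lower, beside 11.0% (DESeq2) and 9.57% (edgeR) of all genes called higher. In this list 0 were lower at an unadjusted DESeq2 p under 0.05, and DESeq2 with the replicate block called 1 lower (6.62% of all genes). The median log2 fold change of the list was -0.03. SAMHD1, which hydrolyses deoxynucleotides, rose from 4274 ± 414 to 11794 ± 2053 normalised counts (SD, n = 3, DESeq2 adjusted p of 3.0e-14). ADAR, which edits double-stranded RNA, rose from 21478 ± 2142 to 42539 ± 2628 (DESeq2 adjusted p of 3.1e-11). DNASE2, the lysosomal nuclease, had 3832 ± 406 and 3857 ± 248 (DESeq2 adjusted p of 0.987). Of 16 other proposed DNA sensors, all tested, LRRFIP1 was called higher by both tools (11.0% and 9.57% of all genes) and 0 were lower. The replicate block gave 2 lower in DESeq2 and 1 in edgeR, beside 6.62% and 5.68% of all genes. Without the block, 0 were lower at an unadjusted DESeq2 p under 0.05. The median of this list was -0.14. LRRFIP1, a cytosolic nucleic acid binding protein, had 2798 ± 184 and 4566 ± 964 (DESeq2 adjusted p of 0.00402, and 0.0584 without Control replicate 2 and 0.0541 without BRG1 replicate 2). XRCC5, the Ku80 subunit, had 12504 ± 161 and 11299.8 ± 349.7 (DESeq2 adjusted p of 0.489).

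TLR9, the endosomal receptor for CpG DNA, was listed at 0 in all Control samples and had estimated counts of 11.96, 0 and 6.99 in BRG1 replicates 1 to 3. TLR9 lies on chromosome 3 from 52221080 to 52225645 (minus strand), and 99.7% of its exon bases lie under exons of the readthrough gene ENSG00000173366, so that its value is uncertain. BRG1 replicate 2 was at 0 like the Control samples, so the groups overlapped. The 19 summed counts in BRG1 cells were at least 5.83-fold above 3 counts over the Control group, but the difference did not pass the test (DESeq2 adjusted p of 0.228), and edgeR's filter left the gene out.

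Of 16 partners of the endosomal Toll-like receptors, DESeq2 tested all and called 4 higher, and edgeR tested 14 and called 2 higher. With the replicate block, DESeq2 called 7 of 15 tested higher and edgeR 6 of 14. Both tools called 0 lower, and 0 were lower at an unadjusted DESeq2 p under 0.05 (median log2 fold change 0.19). The shares of all genes called higher were 11.0% and 9.57%, or 13.4% and 13.7% with the block. TLR3, the receptor for double-stranded RNA, rose from 6.91 ± 3.16 to 172 ± 54.1 normalised counts (SD, n = 3, DESeq2 adjusted p of 1.4e-18). CTSL, a cathepsin that processes these receptors, rose from 2601 ± 147 to 3974 ± 406 (DESeq2 adjusted p of 0.000251). CTSS, another cathepsin, had 9.21 ± 3.07 and 42.7 ± 29.1 with overlapping groups (adjusted p of 0.0250 by DESeq2 and 0.0792 by edgeR, and up to 0.396 by DESeq2 without BRG1 replicate 2). UNC93B1, the chaperone that carries them to endosomes, had 905 ± 86.2 and 1216 ± 42.7 (adjusted p of 0.0276 by DESeq2 and 0.121 by edgeR, or 0.0186 and 0.0422 with the replicate block, and up to 0.217 by DESeq2 without BRG1 replicate 2). MYD88, the adaptor of TLR9, had 25.6 ± 13.7 and 25.7 ± 9.79 (DESeq2 adjusted p of 0.989).

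Most of the transcripts listed as outputs of these pathways were called higher in BRG1 cells, and what induced them was not tested. Of 13 such outputs, DESeq2 tested 11 and called 9 higher and 0 lower, and edgeR tested 8 and called each of them higher. The shares of all genes called higher were 11.0% and 9.57%. IFNB1 and CXCL10, with Control counts near 0, passed edgeR's filter through their BRG1 samples alone. The count of edgeR calls is thus partly set by the filter. At an unadjusted DESeq2 p under 0.05, 0 of the outputs were lower. Their median log2 fold change was 4.84, or 4.65 over the 12 above the floor with IFNL1 at its lower bound. IFNB1, which encodes interferon beta, had 0, 1.17 and 0 normalised counts in Control and 79.1, 61.5 and 31.3 in BRG1 replicates 1 to 3 (DESeq2 adjusted p of 6.8e-07). IFIT3, an interferon-induced antiviral gene, rose from 57.8 ± 30.3 to 7559 ± 3361 (SD, n = 3, DESeq2 adjusted p of 2.0e-63). The chemokine gene CCL5 rose from 12.3 ± 7.37 to 1211 ± 343 (DESeq2 adjusted p of 2.3e-62), and CXCL10, a chemokine gene induced by interferons, rose from 2.81 ± 3.07 to 131 ± 57.9 (DESeq2 adjusted p of 1.9e-11). IFNB1, IFIT3, CCL5, IFI16 and TMEM173 were all highest in BRG1 replicate 1 and lowest in BRG1 replicate 3. SMARCA4 had the same order, although its replicates 2 and 3 were close (79075 and 78589 normalised counts). The library of replicate 1 was the deepest and that of replicate 3 the shallowest. IL1B, LRRC8D and LRRFIP1 had this order too, so it is not particular to sensor genes and the listed outputs. ZBP1, MNDA and TREX1 did not follow that order.

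**Figure D4:**
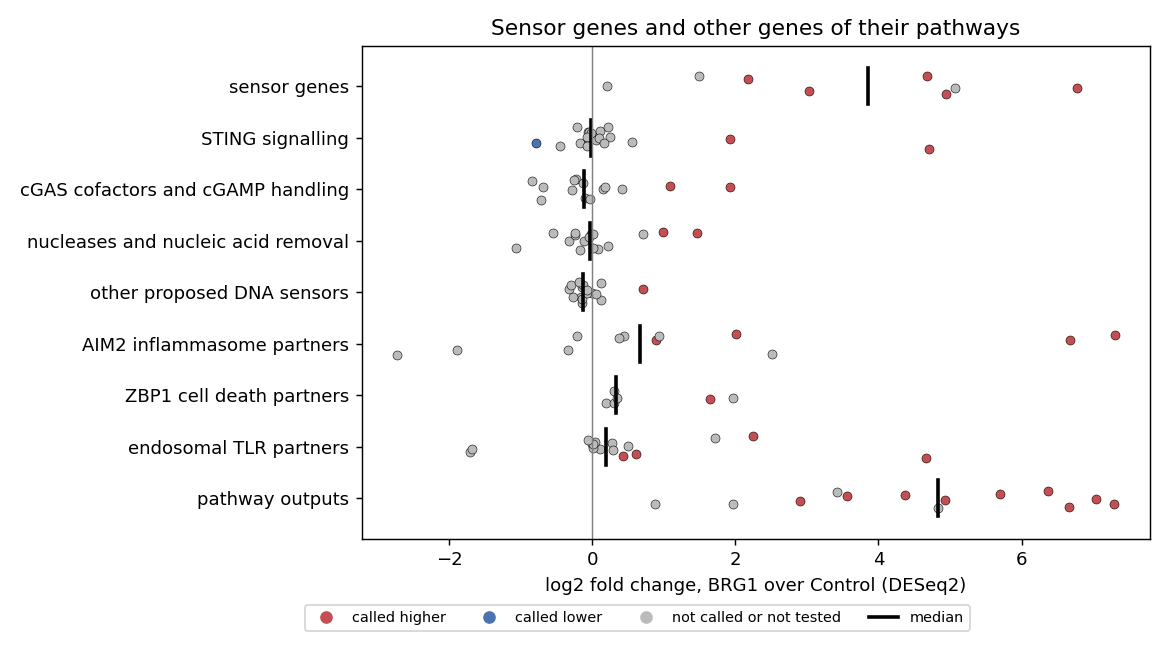
Each point is the DESeq2 log2 fold change of BRG1 over Control (horizontal axis) of a gene with a count in the sensor genes or in a list of their pathway, in red where called higher, blue where called lower and grey otherwise, and a bar marks each median. The medians of the lists lie between -0.14 and 0.67 for all but the outputs (4.84), and that of the sensor genes is 3.86.

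In the 8 lists together, DESeq2 tested 107 of 116 genes and called 25 higher and 1 lower, beside 11.0% and 1.84% of all genes. edgeR tested 94 and called 20 higher and 1 lower, beside 9.57% and 1.02% of all genes. The median log2 fold change was 0.07. With the replicate block, DESeq2 called 31 higher and 6 lower of 102 tested (13.4% and 6.62% in all genes). With it, edgeR called 28 higher and 4 lower of 94 tested (13.7% and 5.68% in all genes).

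Levels were compared between the sensor genes as normalised counts per kb of merged exons. In Control cells the means were 4.64 for TREX1, 4.23 for IFI16, 0.900 for MNDA, 0.666 for MB21D1, 0.254 for TMEM173 and 0.1001 for AIM2, with ZBP1, TLR9 and PYHIN1 at 0. The Control samples of TREX1 (3.14 to 6.73) overlapped those of IFI16 (2.21 to 5.75), so that the order of these genes is not resolved there. Levels of TREX1 are uncertain in both groups, since its exon bases lie under exons of ATRIP. In BRG1 cells IFI16 was first at 130.3 per kb and TREX1 next at 20.6 per kb. MNDA followed at 7.73, TMEM173 at 5.78, ZBP1 at 3.81, TLR9 at 1.90, MB21D1 at 0.766 and AIM2 at 0.274 per kb. The BRG1 samples of IFI16 (76.7 to 171) did not overlap those of TREX1 (17.0 to 25.8), nor those of TREX1 with MNDA (6.81 to 9.02). From MNDA downwards each gene overlapped the next, so that their order is not resolved.

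IFI16 was the one gene called here with a mean of at least 50 normalised counts, and the genes closest to its pattern over the 6 samples were searched among 12433 genes of that mean. By Pearson r of log2 normalised counts plus 1 they were ATP10A (0.99938), AMOTL1 (0.99867) and CLDN2 (0.99852). ATP10A, a phospholipid flippase, had means of 5.39 and 271 normalised counts in Control and BRG1 cells. AMOTL1, an angiomotin-family protein of cell junctions, had 20.0 and 927, and CLDN2, a claudin of tight junctions, had 0.658 and 100.2. These correlations rest on 6 samples in 2 groups and are given as a description.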

How the data were processed

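RNA-seq libraries of 6 samples of COV434 cells (3 Control, 3 BRG1, grouped by the labels) took 500 ng of RNA, did not keep strand, and were read as pairs of 78 bases. Per the labels and the study's methods, the authors checked reads with FastQC (0.11.5), aligned them with STAR (2.5.3a) to hg38 with a GENCODE annotation, quantified transcripts with Salmon (0.8.2) and used tximport to sum these per gene symbol. The authors deposited estimated counts, which tximport's lengthScaledTPM option derives from TPM, transcript length and library size. They need not be whole and are not corrected for depth. Salmon shares reads between overlapping and near-identical genes by a model, and without strand, antisense transcripts add to a gene's value.

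Estimated counts were rounded to whole numbers. BRG1 was compared with Control over all genes by the Wald test of DESeq2 (1.42.0) in R (4.3.3) with group as the only term, using median-ratio size factors and DESeq2's independent filtering, since the study's methods name DESeq2. A gene was called at a Benjamini-Hochberg adjusted p under 0.05 over all genes. Normalised counts are counts divided by the size factor. The quasi-likelihood test of edgeR (4.0.16) and limma-voom (3.58.1), both with TMM factors, TMM factors in DESeq2, a filter of 10 counts in at least 3 samples, no independent filtering, stricter thresholds, the replicate number as a block, and leaving out each sample were alternatives. The fits were tested on simulated data, where the share of false calls was well above the nominal level for DESeq2 and near it for edgeR, so edgeR's values are given beside those of DESeq2. Totals of 29699741 to 63613710 estimated counts set the precision, and counting intervals (exact, 95%) and the floor of 3 counts cover counting error only. Reads carry no molecular identifiers.

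Replicate numbers come from the labels. Deviations from group means over 12433 genes correlated between same-numbered samples (0.495, 0.433 and 0.576, against -0.481 to 0.0745 for other pairs), so the numbers were taken to pair the samples.

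The 9 genes, the gene lists and the naming rule were chosen with earlier results of these data known. The rule named the 9 genes, up to 3 genes called in each direction in each list by largest fold change, a set of key pathway genes whatever their values, and the 3 genes closest in pattern to any called member with a mean of at least 50. APCS, CD68, FOXL2, AMHR2, IFNL1 and ATRIP were added after their values were seen, and LYZ, CYP19A1 and INHBA came by the rule from the marker lists. A neighbour of the HIN-200 genes is not reported here. Positions and exon overlaps are from GENCODE 44, found for 9 of 9 genes, and promoters are from RefSeq (GRCh38.p14), found for 6 of 9.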

Additional observations from a re-analysis of the deposited data

How the results depend on the processing

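The changes of IFI16, ZBP1 and SMARCA4 kept direction and call in all 13 alternatives, with log2 fold changes of 4.65 to 5.21 for IFI16 and 5.34 to 7.44 for ZBP1, and the low-count filter left TMEM173 out. The count of sensor genes called higher, 5, became 3 with the replicate block in DESeq2 (MNDA and TREX1 lost), and the block changed no other call among the 9 genes (among other named genes, ENPP1 and CD68 gained a call). Leaving out single samples gave 2 to 4 (2 without BRG1 replicate 1 and without BRG1 replicate 2). The count of pathway genes called lower, 1, became 6 with the replicate block in DESeq2 and 4 with it in edgeR, 0 when an absolute log2 fold change of at least 1 was required, and 1 to 4 when single samples were left out (4 without BRG1 replicate 3). The cause of these changes was not tested, and the fits that leave out a sample also rest on fewer samples. Log2 fold changes near 0 changed sign when single samples were left out, ranging from -0.58 to 0.84 for MB21D1, -0.011 to 0.16 for TBK1, -0.15 to 0.085 for IRF3, -0.34 to 0.55 for MYD88, -0.048 to 0.097 for DNASE2 and -0.27 to 0.29 for PTPRC. DNASE2 was also at -0.0032 by edgeR, -0.0051 by limma-voom, -0.0079 with TMM factors in DESeq2 and -0.00095 by edgeR with the replicate block, and PTPRC was at -0.095 by limma-voom. edgeR and limma-voom gave no value for MB21D1, AIM2 and TLR9, which their filter removed. Depth limits AIM2 and MB21D1, which held a few counts, TLR9, which had none in Control, and PYHIN1, which had none.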
